A study of Homo sapiens with 6 samples.

Results

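The zinc finger genes of human chromosome 19 were followed in the K562 chronic myeloid leukaemia line, an established line driven by the fusion kinase BCR-ABL1. They were taken as the genes of the authors' deposited table whose symbol starts with ZNF, ZFP, ZSCAN or ZKSCAN and which GENCODE places on chromosome 19, with antisense names left out. This gave 38 of the 674 listed genes. By their labels, the 6 libraries form 3 pairs: the imatinib-resistant lines IR1 and IR2, both grown with imatinib always in the medium, and the imatinib-sensitive parent WT. Imatinib blocks the ABL kinase, and the sources used here do not give its dose. Nothing in the labels says whether a resistant line is a clone, or that the repeat library of a group came from a separate culture. Resistance and exposure to the drug cannot be told apart in this design.

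The table holds the genes shared by the IR1 and the IR2 comparison, both made with WT, with 1 log2 fold change per comparison. A value of 1 on this scale is a doubling. The header names neither the resistant line of each column nor the group on top of the fold, so the columns are called y and x, after the ends of their header names, and "positive" says nothing of which line was higher. The size of the log2 fold change exceeds 1.5 in columns y and x for all listed genes, members included. No errors, p-values, levels or single libraries enter this account. The depth is therefore unknown, no fold can be set against a spread between libraries and no difference was tested. Both comparisons share the WT libraries. In bulk RNA, a change in the share of cells that express a gene and a change in RNA per cell cannot be told apart. The table gives no levels, so the identity of the line could not be checked from it.

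C2H2 zinc finger genes form the largest family of transcription factors in the human genome, and many of them lie in tandem clusters on chromosome 19 that arose by repeated duplication. Each finger holds a zinc ion between cysteine and histidine pairs and reads a short stretch of DNA. Most of the proteins in these clusters also carry a KRAB domain, which recruits the corepressor TRIM28 (KAP1) and with it the histone methyltransferase SETDB1. Many KRAB zinc finger proteins bind and silence transposable elements. Some genes of the family, among them ZSCAN1 and ZSCAN18, encode a SCAN domain, which pairs proteins with each other.

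All 38 members were positive in both columns, where 74.3% of all listed genes were positive in both. The rule did not use the sign, but it used the table, and the sign of the family was known when the members were chosen. Among members the median log2 fold change of the authors' deposited table was 2.84 in column y (quartiles 2.24 and 3.32) and 2.21 in column x (quartiles 1.81 and 2.67). As plain folds of the authors' deposited table these medians are 7.16 in column y and 4.62 in column x. For the 463 positive listed genes that are not members, the median log2 fold change of the authors' deposited table was 2.93 in column y and 2.30 in column x. In both columns the members' medians thus lay slightly below those of the other positive genes. For the 352 positive coding genes of the table, members included, it was 2.69 in column y and 2.26 in column x of the authors' deposited table. A log2 fold change of at least 2 in both columns was reached by 23 members (60.5%), against 43.9% of all listed genes, where negative genes cannot reach it, and 59.0% of the other positive genes. The members' share was thus close to that of the other positive genes. A value of at least 4 was reached by 6 members in column y (15.8%) and 3 in column x (7.89%), against 16.8% of all listed genes in column y and 5.49% in column x. Among the other positive genes these shares were 23.1% in column y and 7.34% in column x, and among the positive coding genes 13.4% in column y and 6.25% in column x.

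Zinc finger genes of chromosome 19 were listed more often than other coding genes. Zinc finger genes were again those chosen by symbol. Of the 263 such protein-coding genes annotated on the chromosome, 37 were listed as positive (14.1%), against 1.76% of all annotated protein-coding genes. The share was 1.65% (20 of 1209) for the other protein-coding genes of chromosome 19 and 3.87% (12 of 310) for protein-coding zinc finger genes of other chromosomes. The remaining member was ZNF812P, a transcribed pseudogene. The choice by symbol counts in ZFP36, whose protein has 0 C2H2 finger motifs. It puts ZIK1, a zinc finger gene listed as positive, among the other protein-coding genes of chromosome 19. These shares count annotated genes whether or not K562 cells express them, so they are a description of the table and no measure of enrichment. A gene can be missing from the table because it is silent, because it changed less, or because it changed against WT in 1 line alone.

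**Figure D1:**
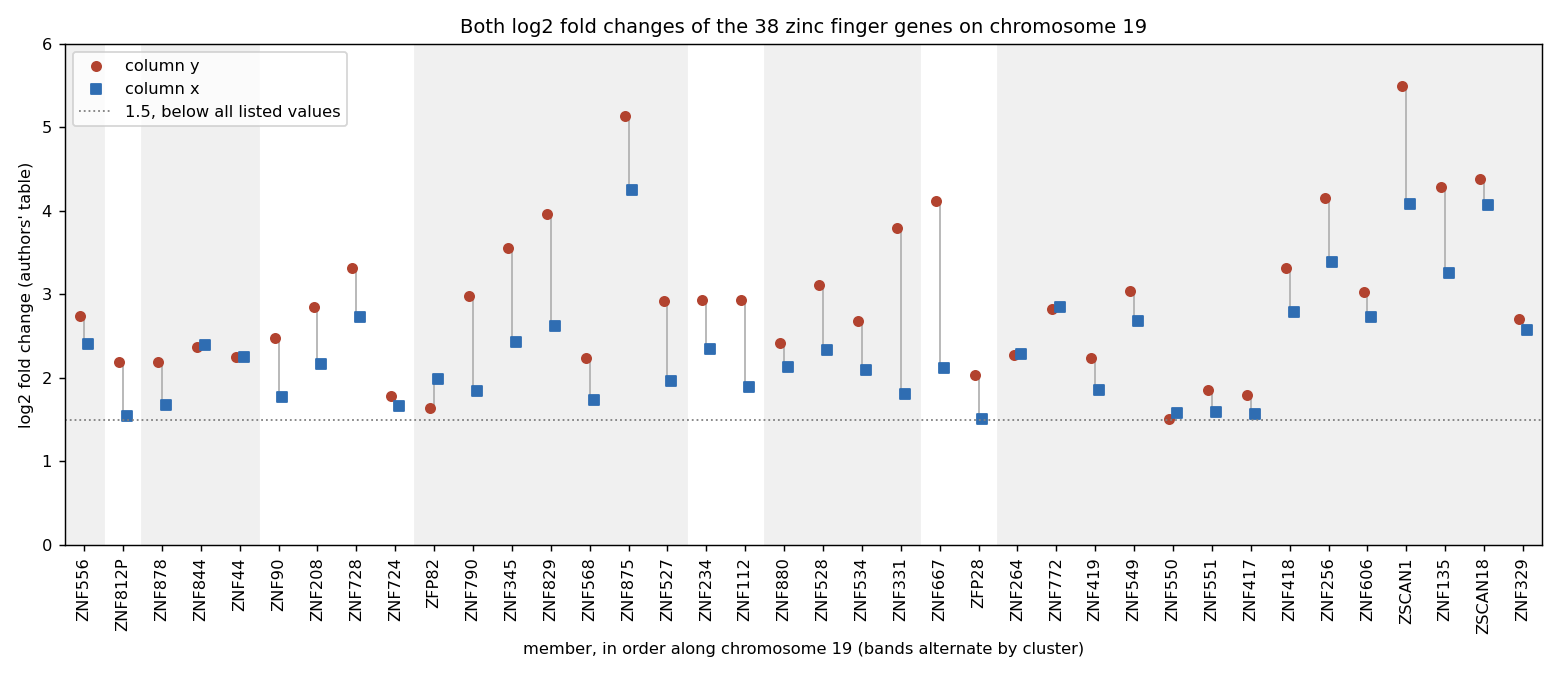
Log2 fold change in the authors' deposited table (vertical axis) for the 38 members in their order along chromosome 19 (horizontal axis), with circles for column y and squares for column x, a grey line joining the 2 values of a gene and shaded bands that alternate by cluster. All values lie above 1.5, and the highest stand in the last cluster (ZSCAN1, 5.49 in column y) and at ZNF875 (5.14 in column y).

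Clusters were read from the annotation. Annotated zinc finger genes of chromosome 19 whose neighbouring starts lie within 500 kb were put in 1 cluster, which gave 22 clusters or single genes, named by their first and last gene. Members lay in 9 of them, and 21 of the 38 members lay in the cluster from ZNF264 to ZNF446 at the end of the long arm or in the cluster from ZNF565 to ZNF573. The 13 without a member held 20 coding zinc finger genes, and 8 of the 13 were single genes. Some listed members stood side by side. Among coding zinc finger genes in order, 23 members formed 7 runs of 2 or more neighbours without an unlisted zinc finger gene between them. Runs are more likely where a larger share of a cluster is listed, and no number of runs to compare with was computed. The longest run had 8 genes: ZNF417, ZNF418, ZNF256, ZNF606, ZSCAN1, ZNF135, ZSCAN18 and ZNF329.

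**Figure D2:**
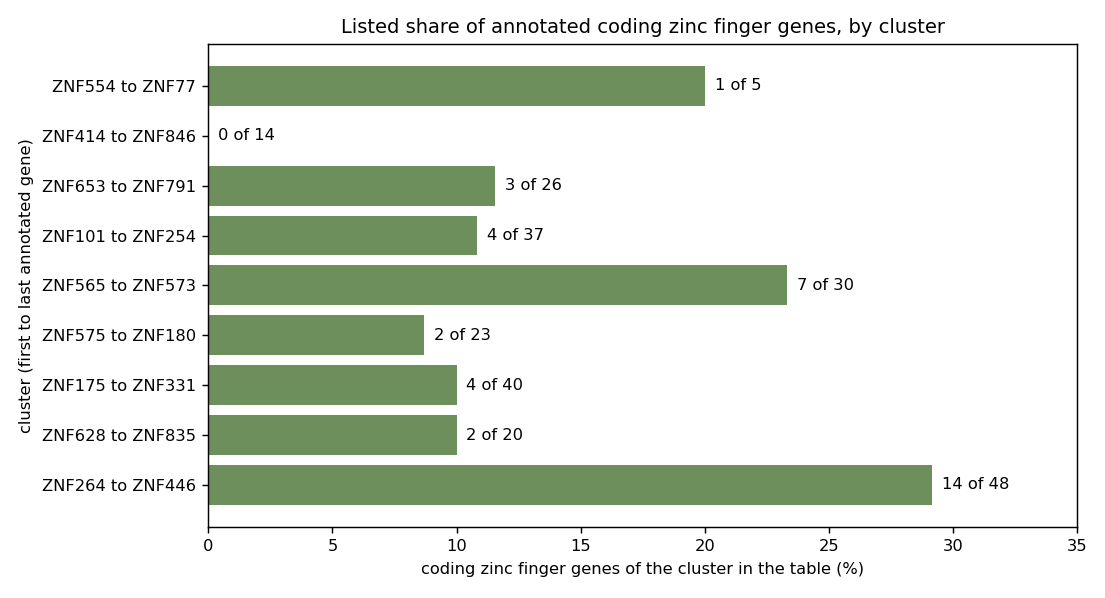
Percent of the annotated protein-coding zinc finger genes of a cluster that are in the table (horizontal axis, from 0), for the 9 clusters with a member in order along the chromosome from top to bottom. The cluster from ZNF264 to ZNF446 stands at 29.2% and the cluster from ZNF565 to ZNF573 at 23.3%, and the member of the cluster from ZNF414 to ZNF846 is a pseudogene.

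The cluster from ZNF264 to ZNF446 held 14 members among 48 coding zinc finger genes (29.2%) over 1290 kb. The median log2 fold change of the authors' deposited table for these 14 was 2.93 in column y and 2.70 in column x. ZSCAN1 (ENSG00000152467), a SCAN domain gene, had the highest mean of both folds among the members, with log2 fold changes of 5.49 in column y and 4.08 in column x of the authors' deposited table, or folds of 45.1 in column y and 16.9 in column x. ZSCAN18 (ENSG00000121413), its SCAN domain neighbour, stood at 4.38 in column y and 4.07 in column x of the authors' deposited table. Between these lies ZNF135, at 4.29 in column y and 3.26 in column x of the authors' deposited table. The 3 adjoining genes thus had folds of over 9 in both columns, and the ends of ZNF135 and ZSCAN18 overlap. ZNF256 had 4.15 in column y and 3.39 in column x of the authors' deposited table. The next gene in this run, ZNF606, a KRAB zinc finger gene, had 3.02 in column y and 2.72 in column x of the authors' deposited table. ZNF418 had 3.32 in column y and 2.79 in column x of the authors' deposited table. The run thus had lower folds at both ends. At its far end ZNF329 stood at 2.71 in column y and 2.58 in column x of the authors' deposited table. At its near end ZNF417, which in human cells binds and represses HERV-K proviruses, stood at 1.80 in column y and 1.56 in column x of the authors' deposited table. Over the 8 genes of the run the median log2 fold change of the authors' deposited table was 3.73 in column y and 3.03 in column x.

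The nearer part of the same cluster had smaller folds. ZNF550 (ENSG00000251369) had the lowest mean among the members, with log2 fold changes of 1.51 in column y and 1.58 in column x of the authors' deposited table. Its neighbour ZNF549, on the opposite strand and overlapping it, stood at 3.04 in column y and 2.68 in column x of the authors' deposited table. Overlapping genes of the table can thus differ by over 1 on the log2 scale. ZNF551 had 1.85 in column y and 1.59 in column x of the authors' deposited table. ZNF264, ZNF772 and ZNF419 lay between 2.24 and 2.83 in column y and between 1.85 and 2.85 in column x of the authors' deposited table. By its definition from gene symbols, the cluster starts at ZNF264, and none of its 12 coding zinc finger genes after ZNF329 was listed.

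To show the start of the gene with the highest and of the gene with the lowest mean fold, their promoter windows are given from RefSeq (build GRCh38.p14, 250 bases before to 50 after the start, written along the gene's strand), with CG dinucleotides, the sites of DNA methylation, in capitals. ZSCAN1 lies on the plus strand, with its window at chr19:58033775-58034074, and holds 42 CG dinucleotides and 74% G+C. ZNF550 lies on the minus strand, with its window at chr19:57559814-57560113, and holds 17 CG dinucleotides and 53% G+C.
ZSCAN1: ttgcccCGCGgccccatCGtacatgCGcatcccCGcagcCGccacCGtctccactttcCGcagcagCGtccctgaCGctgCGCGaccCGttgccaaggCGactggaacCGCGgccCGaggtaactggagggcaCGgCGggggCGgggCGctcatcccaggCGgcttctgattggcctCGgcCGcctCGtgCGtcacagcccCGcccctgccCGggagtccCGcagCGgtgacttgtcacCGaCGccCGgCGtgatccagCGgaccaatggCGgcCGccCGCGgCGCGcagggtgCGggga
ZNF550: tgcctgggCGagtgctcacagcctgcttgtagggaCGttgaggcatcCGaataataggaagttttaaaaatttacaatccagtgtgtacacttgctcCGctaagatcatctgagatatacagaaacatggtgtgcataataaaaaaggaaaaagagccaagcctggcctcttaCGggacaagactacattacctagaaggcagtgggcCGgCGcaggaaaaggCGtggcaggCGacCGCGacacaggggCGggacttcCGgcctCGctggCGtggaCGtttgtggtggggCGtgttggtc

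The cluster from ZNF565 to ZNF573 held 7 members among 30 coding zinc finger genes (23.3%) over 1635 kb. ZNF875 (ENSG00000181666, called HKR1 in GENCODE) had the next highest mean of all members, at 5.14 in column y and 4.25 in column x of the authors' deposited table, folds of 35.2 in column y and 19.003 in column x. Its neighbour ZNF527 stood at 2.92 in column y and 1.96 in column x of the authors' deposited table. ZNF875 was alone among the members of this cluster with values above 4, as the other 6 lay between 1.64 and 3.96 in column y and between 1.74 and 2.62 in column x of the authors' deposited table. ZFP82, a KRAB zinc finger gene, had 1.64 in column y and 1.99 in column x of the authors' deposited table. Its fold was the larger in column x by 0.35, the widest such gap among members.

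A run of 4 neighbours in that cluster was made of ZNF790, ZNF345, ZNF829 and ZNF568. ZNF829 stood at 3.96 in column y and 2.62 in column x of the authors' deposited table. ZNF568, whose mouse counterpart represses a placental Igf2 transcript, stood at 2.24 in column y and 1.74 in column x of the authors' deposited table. These genes are head to head, with annotated starts 38 bases apart, and their folds still differed by over 1 in column y. ZNF345 stood at 3.56 in column y and 2.43 in column x of the authors' deposited table. ZNF790 had 2.98 in column y and 1.84 in column x of the authors' deposited table. ZNF790 and ZNF345 also lie head to head, with bodies that overlap by 427 bases, and ZNF345 overlaps ZNF829 at its other end. The sources used here do not say whether reads were counted by strand. Annotated transcripts of ZNF345 and of ZNF829 shared 0% of their 50-base stretches with overlapping genes. For ZNF790 the share was 0.29%, with ZNF790-AS1. Reads from such overlaps that fall outside annotated transcripts cannot be assigned with certainty.

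The promoter windows of the closest head-to-head members are given to show how far they share 1 stretch of DNA, again from RefSeq on GRCh38.p14 with CG dinucleotides in capitals. The window of ZNF829 is chr19:36916242-36916541 on the minus strand, with 27 CG dinucleotides. The window of ZNF568 is chr19:36916082-36916381 on the plus strand, with 25 CG dinucleotides, so the pair overlaps in position and is read in opposite directions.
ZNF829: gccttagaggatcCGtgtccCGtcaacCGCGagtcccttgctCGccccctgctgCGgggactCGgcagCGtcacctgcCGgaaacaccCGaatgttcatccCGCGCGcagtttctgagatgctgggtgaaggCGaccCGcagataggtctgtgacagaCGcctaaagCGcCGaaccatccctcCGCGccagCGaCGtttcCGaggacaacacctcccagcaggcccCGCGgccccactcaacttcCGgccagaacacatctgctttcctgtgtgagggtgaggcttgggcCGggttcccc
ZNF568: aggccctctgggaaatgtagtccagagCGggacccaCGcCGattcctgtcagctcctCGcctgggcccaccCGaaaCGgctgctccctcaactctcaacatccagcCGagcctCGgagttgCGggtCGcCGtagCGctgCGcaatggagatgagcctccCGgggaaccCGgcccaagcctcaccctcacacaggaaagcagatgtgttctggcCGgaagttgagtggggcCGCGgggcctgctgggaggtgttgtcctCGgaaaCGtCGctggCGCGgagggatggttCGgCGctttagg

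The cluster from ZNF175 to ZNF331 held 4 members among 40 coding zinc finger genes (10%), all on the plus strand. ZNF331, an imprinted gene, stood at 3.80 in column y and 1.81 in column x of the authors' deposited table. A run of neighbours, ZNF880, ZNF528 and ZNF534, had lower values in column y, from 2.42 to 3.11, and higher values in column x, from 2.097 to 2.33, in the authors' deposited table. ZNF534, known in human stem cells as a binder of HERVH elements, was within these ranges, at 2.68 in column y and 2.097 in column x of the authors' deposited table. In the cluster from ZNF628 to ZNF835, ZNF667 stood at 4.12 in column y and 2.12 in column x of the authors' deposited table. ZFP28, close to the lower limit of the table, had 2.04 in column y and 1.51 in column x of the authors' deposited table. These were the members of that cluster, 2 of its 20 coding zinc finger genes. The cluster from ZNF575 to ZNF180 held 2 members among 23, ZNF234 and ZNF112, which both had 2.93 in column y of the authors' deposited table and differed in column x, at 2.35 for ZNF234 and 1.89 for ZNF112.

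On the short arm 9 members were spread over 4 clusters, with no value of 4 or more. The cluster from ZNF101 to ZNF254, which contains many primate-specific genes, held 4 members among 37 coding zinc finger genes (10.8%). Its highest was ZNF728, at 3.32 in column y and 2.73 in column x of the authors' deposited table. Its lowest was ZNF724, at 1.78 in column y and 1.66 in column x of the authors' deposited table. ZNF208 lay between, at 2.85 in column y and 2.16 in column x of the authors' deposited table, as did ZNF90, at 2.48 in column y and 1.77 in column x. The cluster from ZNF653 to ZNF791 held ZNF878, ZNF844 and ZNF44 among 26 (11.5%), with values from 2.19 to 2.37 in column y and from 1.67 to 2.39 in column x of the authors' deposited table. The highest and lowest of these were ZNF844 and ZNF878. ZNF556, 1 of 5 in the first cluster of the chromosome, stood at 2.74 in column y and 2.41 in column x of the authors' deposited table. The pseudogene ZNF812P stood at 2.20 in column y and 1.55 in column x of the authors' deposited table.

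The fold was larger in column y for 32 of the 38 members (84.2%), against 76.7% of all listed genes and 72.7% of the positive coding genes. The median difference of absolute log2 fold change of the authors' deposited table, column y minus column x, was 0.53 for members and 0.47 for all listed genes. For the positive coding genes it was 0.33. A difference of over 1 was seen for 8 members (21.1%), against 24.9% of all listed genes and 15.9% of the positive coding genes. The widest was at ZNF667 (2.0), followed by ZNF331 (1.99) and ZSCAN1 (1.41), as differences of log2 fold change in the authors' deposited table. ZNF829, ZNF790, ZNF345, ZNF112 and ZNF135 made up the 8, with differences from 1.03 to 1.34 in the authors' deposited table. The difference varied by cluster, with medians in the authors' deposited table of 0.95 in the cluster from ZNF565 to ZNF573 and 0.30 in the cluster from ZNF264 to ZNF446. Of the 6 members with the larger fold in column x, 5 had a difference within 0.1 in the authors' deposited table: ZNF44, ZNF844, ZNF264, ZNF772 and ZNF550. The last was ZFP82.

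**Figure D3:**
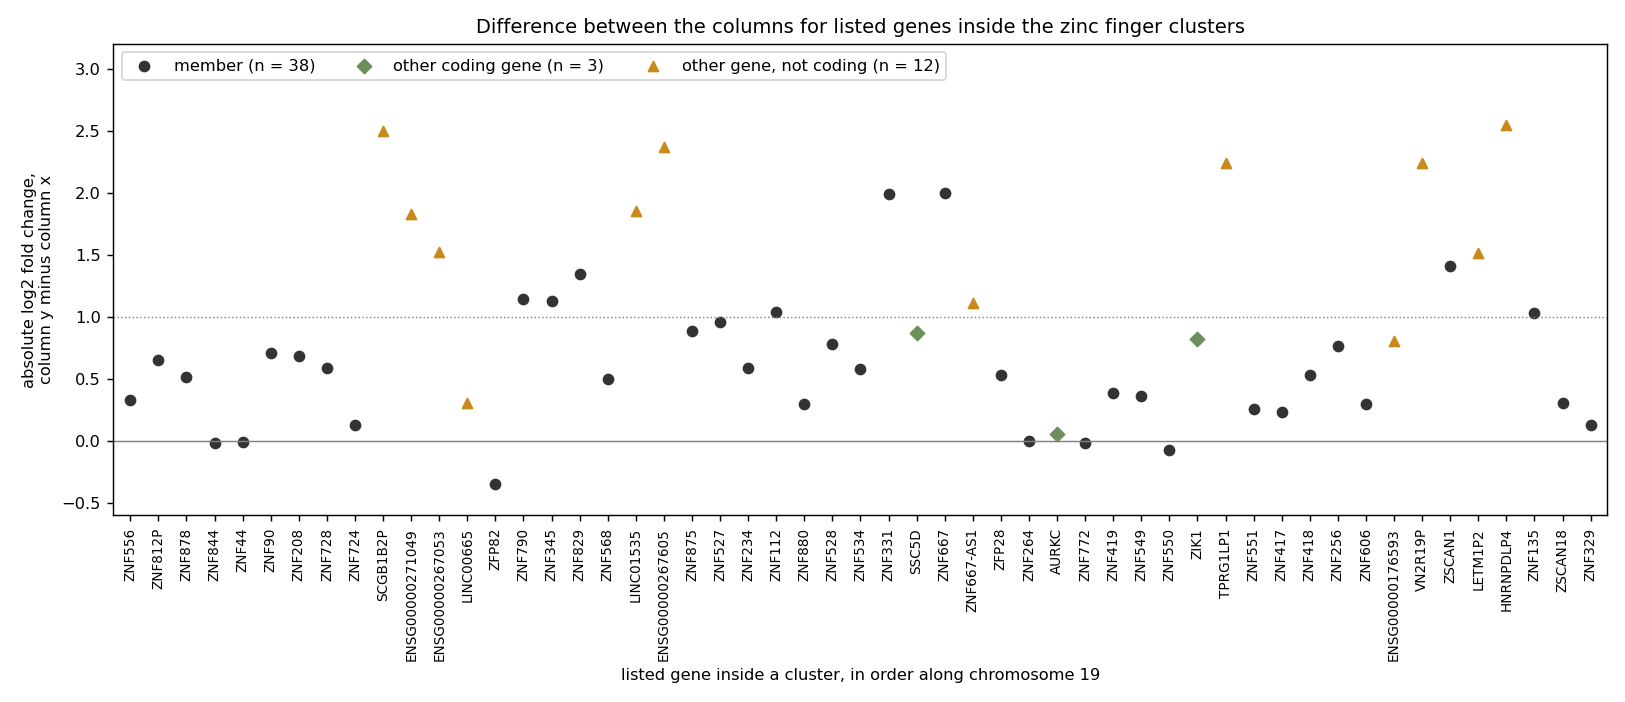
Absolute log2 fold change of column y minus that of column x in the authors' deposited table (vertical axis) for each listed gene inside a zinc finger cluster, in order along chromosome 19 (horizontal axis), with circles for members, diamonds for other coding genes and triangles for genes that are not coding. Above the dotted line at 1 lie 8 of the 38 circles and 10 of the 12 triangles. Of all positive listed genes 25.5% had such a difference, against 15.9% of the positive coding ones. A gap by gene type was thus present among the positive genes of the whole table. The share for positive genes that are not coding was not computed by itself.

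Other listed genes lay inside the clusters too, and all 15 were positive in both columns. The cluster from ZNF807P to ZNF792, which has no member, holds 2 of them. Only 3 were coding: AURKC, a meiotic aurora kinase of the male germ line, the scavenger receptor gene SSC5D and ZIK1, itself a zinc finger gene that the choice by symbol left out. ZIK1 stood at 4.27 in column y and 3.45 in column x of the authors' deposited table. AURKC had 3.497 in column y and 3.44 in column x of the authors' deposited table. Of all coding genes of another name inside the 9 clusters with members, 3 of 93 (3.23%) were listed.

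The 12 listed genes inside the clusters that are not coding were long non-coding RNAs and pseudogenes. The members' median log2 fold change in the authors' deposited table, 2.84 in column y and 2.21 in column x, stood below that of these 12, which was 4.67 in column y and 2.87 in column x. Gene type differs between these sets, as all members but 1 are coding. For all positive listed genes the median in the authors' deposited table was 2.92 in column y and 2.28 in column x. For the positive coding genes it was 2.69 in column y and 2.26 in column x. Among the positive genes of the whole table, those not annotated as coding thus had larger folds too, mainly in column y. ZNF667-AS1, whose start lies 815 bases from that of ZNF667 on the opposite strand, stood at 5.03 in column y and 3.91 in column x of the authors' deposited table. Of 76 annotated genes with an antisense, intronic or divergent name of a zinc finger gene it was the 1 listed, where 0.456% of all annotated genes that are not coding and 1.12% of annotated genes of any type were listed, so a count this small says nothing of such genes as a group. LETM1P2, a processed pseudogene within ZSCAN1 on the same strand, stood at 5.73 in column y and 4.21 in column x of the authors' deposited table. HNRNPDLP4, also within ZSCAN1 but on the opposite strand, stood at 5.42 in column y and 2.87 in column x of the authors' deposited table. These lie inside the gene body of the member with the highest mean. Annotated transcripts of ZSCAN1 shared 0% of their 50-base stretches with overlapping genes. Reads from outside annotated transcripts were not examined. ENSG00000176593, a processed transcript, has its start 1288 bases from that of ZNF606 on the opposite strand, and had 4.18 in column y and 3.38 in column x of the authors' deposited table. Between them and ZSCAN1 lies VN2R19P, a pheromone receptor pseudogene, at 5.16 in column y and 2.93 in column x of the authors' deposited table. In the cluster from ZNF565 to ZNF573, the long non-coding RNA LINC00665 had 4.17 in column y and 3.87 in column x of the authors' deposited table, and LINC01535 had 4.25 in column y and 2.40 in column x. The remaining 5, among them the pseudogene TPRG1LP1 and SCGB1B2P, ranged from 3.26 to 5.11 in column y and from 1.74 to 2.87 in column x of the authors' deposited table.

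**Figure D4:**
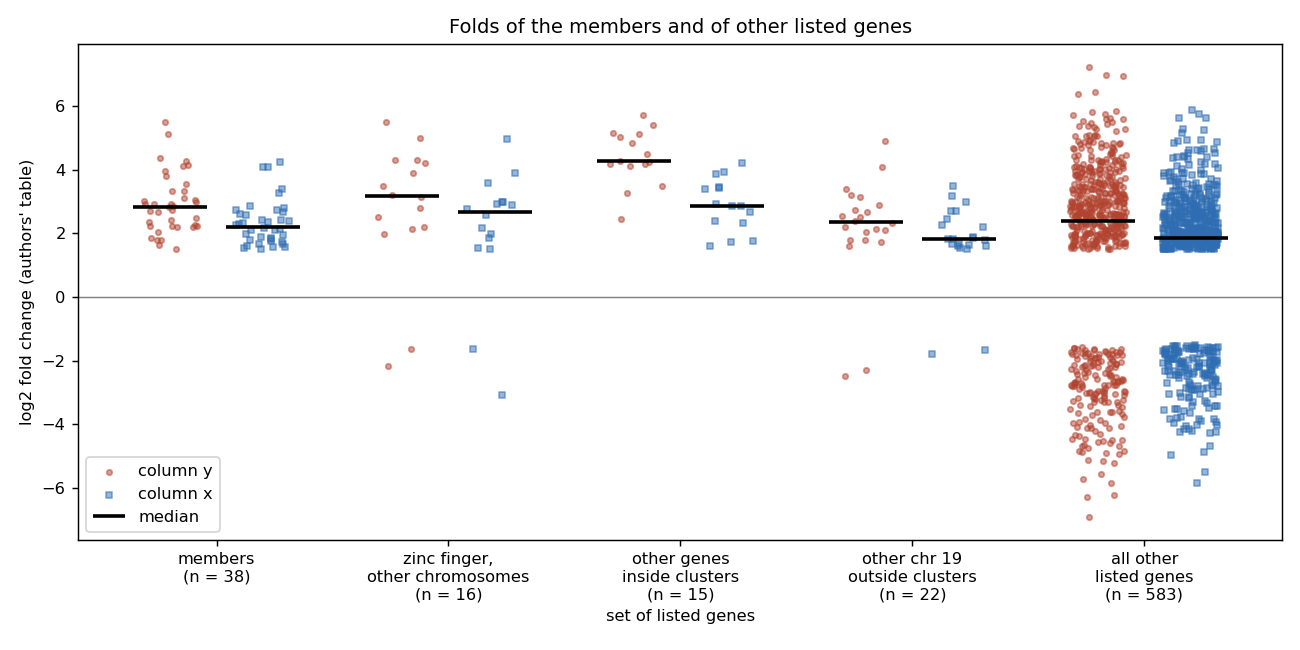
Log2 fold change in the authors' deposited table (vertical axis) for the members, zinc finger genes of other chromosomes, other listed genes inside the clusters, other listed genes of chromosome 19 outside them and all remaining listed genes (horizontal axis), with 1 circle per gene for column y, 1 square for column x and a black bar at the median. The 38 members and the 15 other genes inside the clusters are all above 0, and each other set has genes on both sides.

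The members' medians lay below those of zinc finger genes of other chromosomes and above those of chromosome 19 genes outside the clusters. Both of these sets include negative genes, while all members are positive. The 15 other listed genes inside the clusters had higher medians than the members, at 4.27 in column y and 2.87 in column x of the authors' deposited table. The 16 zinc finger genes of other chromosomes had a median log2 fold change of 3.18 in column y and 2.68 in column x of the authors' deposited table, with 14 positive. The 22 other listed genes of chromosome 19 outside the clusters had 2.36 in column y and 1.82 in column x of the authors' deposited table, with 20 positive. None of these differences was tested, since the folds have no errors.

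The proteins were compared with those of zinc finger genes of the chromosome that are not listed, since the symbols that chose the members are themselves tied to finger and SCAN domains. Sequences came from GENCODE 29 transcripts translated along their annotated coding part, with the longest complete one taken per gene. The 37 coding members had a median length of 622 residues and 13 C2H2 finger motifs, against 571 residues and 12 motifs for 224 coding zinc finger genes of chromosome 19 that are not listed. ZNF208 had the most, with 36 motifs, and ZSCAN18 the fewest, with 2. The KRAB domain was found in 33 of the 37 coding members (89.2%) and in 183 of the 224 genes not listed (81.7%). The 4 coding members without it were ZSCAN1 and ZSCAN18, where the SCAN domain was found, and ZNF345 and ZNF329. The median log2 fold change of the authors' deposited table was 3.97 in column y and 3.32 in column x for these 4, and 2.83 in column y and 2.13 in column x for the 33 with a KRAB domain. Of the 4, ZSCAN1, ZSCAN18 and ZNF329 lie in the longest run. The median of that run in the authors' deposited table was 3.73 in column y and 3.03 in column x. Domain and place cannot be told apart in so few genes.

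Of the fixed list of 27 genes of the corepressor pathway, which holds TRIM28, SETDB1, the HP1, HDAC and CHD partners, the HUSH complex and DNA methyltransferases, 0 were in the table. Only 2.41% of all annotated coding genes were listed in either sign, less than 1 gene in a list of this size, so the count of 0 says nothing about the pathway. A gene outside the table may still differ by less than the limits of the authors' selection.

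Promoter windows from RefSeq (GRCh38.p14) were found for 34 members, and ZNF812P, ZNF728, ZFP28 and ZNF417 are named without one. The median window held 20 CG dinucleotides in members, 20 in 194 chromosome 19 zinc finger genes not listed and 14 in all 35116 promoters of the same length. The most were 42, in ZSCAN1 and ZNF667, followed by 37 in ZFP82 and 36 in ZSCAN18. The fewest were 8, in ZNF556. Across the 34 members Spearman's rho between the CG count and the mean of both log2 fold changes was 0.35, as a description over genes that share clusters, libraries and base composition. ZFP82 and ZNF875 stood far from this order, with a CG-rich window and a mean of 1.82 for ZFP82, and 18 CG dinucleotides and a mean of 4.69 for ZNF875, in log2 fold change of the authors' deposited table.

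**Figure D5:**
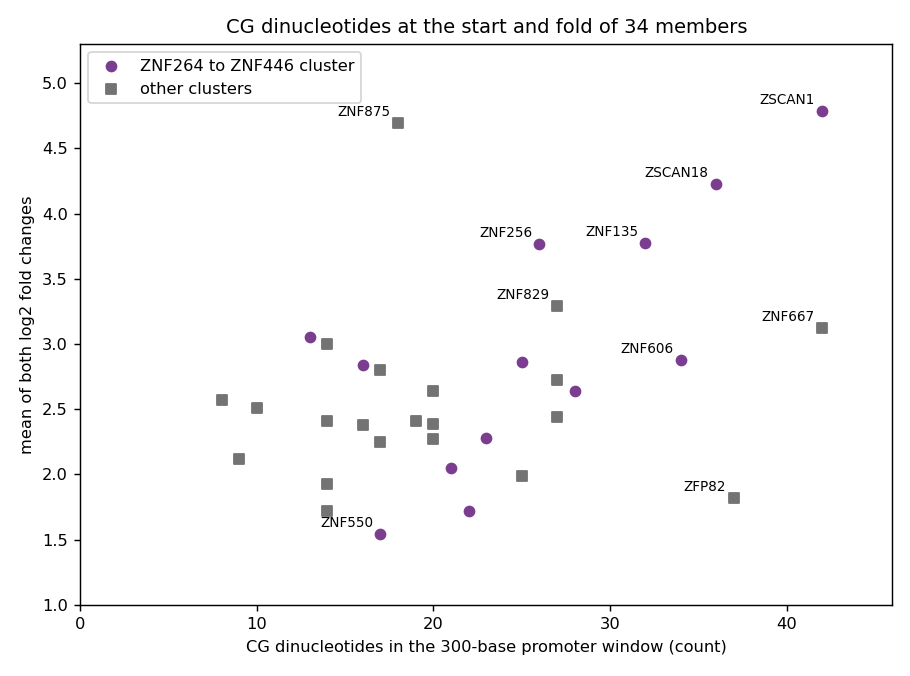
Count of CG dinucleotides in the 300-base promoter window (horizontal axis) and mean of both log2 fold changes (vertical axis) for 34 members, with circles for the cluster from ZNF264 to ZNF446 and squares for the other clusters. ZSCAN1 stands at the upper right with 42 CG dinucleotides and a mean of 4.79, ZNF875 high with 18 and ZFP82 low with 37.

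Short motifs were searched on both strands of the same windows. GGGCGG, the core read by SP1, was in 67.6% of member windows, 67.0% of those of genes not listed and 45.0% of all promoters. CCGGAA, an ETS core, was in 55.9% of member windows, 55.2% of those not listed and 17.2% of all promoters. ACTACA, a part of the ZNF143 motif, was in 15 of 34 member windows (44.1%), 45 of 194 of those not listed (23.2%) and 8.46% of all promoters. By position, ACTACA was in 0 of 7 member windows before ZNF565 and in 15 of 27 from ZNF565 on (55.6%). Windows of genes not listed followed the same order, with 6.85% before ZNF565 and 33.1% from there on. Over the whole stretch from ZNF565 on, the members' share was thus the higher. In its last part, from ZNF264 on, the share was 61.5% of 13 member windows and 56.3% of 32 windows not listed. The gap was therefore wider in the part between ZNF565 and ZNF264. TATAAA was in 0 member windows, 2.58% of those not listed and 11.5% of all promoters. AGATAA, a form read by GATA factors, was in 8.82% of member windows, 5.15% of those not listed and 10.3% of all promoters. TTCNNNGAA, a STAT form, was in 17.6% of member windows, 16.5% of those not listed and 7.66% of all promoters. ATGGCG, a YY1 core, was in 11.8% of member windows, 20.1% of those not listed and 10.7% of all promoters. TGACG, a CREB core, was in 26.5% of member windows, 34.5% of those not listed and 24.6% of all promoters. The E-box CACGTG was in 2.94% of member windows, 4.64% of those not listed and 7.26% of all promoters. The NRF1 motif was in 0 member windows, 2.58% of those not listed and 1.24% of all promoters. These are matches of letters, not known sites.

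Zinc finger genes are close relatives, so the share of each member's transcript sequence found elsewhere was measured. It was the percent of distinct 50-base words of all its GENCODE transcripts that occur, on either strand, in transcripts of a gene at another place. The median over the members was 1.31%, and 37 members were under 10%. The exception was ZNF417 at 31.1%, which shares 30.5% with its paralog ZNF587, and its folds are uncertain for that reason. ZNF419 (9.46%, mostly with ZNF773) and ZNF812P (9.43%, mostly with ZNF562) came next. ZSCAN1 had 0.34%, ZNF875 1.74% and ZNF667 0.12%. The lowest, at 0%, were ZNF534 and ZFP28. Overlap in place was more common, as 26 members overlap another annotated gene and 10 overlap another listed gene. Words shared with genes that overlap in place made up at least 10% for 7 members and at least 20% for 3 of these. ZNF724 shared 43.6% with ENSG00000283201, and ZNF135 and ZSCAN18, which lie tail to tail on opposite strands, shared 31.0% of the words of ZNF135 and 23.1% of those of ZSCAN18 with each other. The folds of ZNF135 and ZSCAN18 may thus rest in part on the same reads unless reads were counted by strand. The sources used here give neither the read length nor how reads with several possible origins were handled, and the part of shared sequence in the folds was not tested.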

How the data were processed

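RNA from 6 libraries of K562 cells was sequenced on an Illumina HiSeq, per the labels' protocols. Per the submitters' processing notes, the build was hg19 and the tools were DESeq2 3.5, Subread, featureCounts and HISAT2 2.1.0, whose roles and settings the sources used here do not give. The authors deposited log2 fold changes of 674 genes in 2 columns, without errors or counts, and the sources used here do not state their filters. Depth per sample is therefore unknown, and no model was fitted.

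Symbols came from a gene name table (654 identifiers matched), else from GENCODE release 29 (GRCh38; 657 matched, 17 not). GRCh38 differs from hg19 and served for gene type, order, overlap and sequence; coordinates belong to the RefSeq windows. KRAB and SCAN domains were called where at least 10 of 15 or at least 10 of 14 key residues matched; a finger motif is a C, 2 to 4 residues, a C, 12 residues, an H, 3 to 5 residues and an H. Planned RefSeq proteins were replaced by GENCODE translations. Python 3.11.15 was used. Clustering by gap, choice by name, CG count, motif search, finger count and shared words were tested on short made-up inputs with known answers. The domain calls and the translation were not tested in this way.

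The members and lists were chosen with earlier results of these data known. By rule, the text describes the 5 highest and 5 lowest members by mean, the 3 widest differences in each direction, the extremes of each cluster with 3 or more members, and listed genes inside the clusters. The closest head-to-head pair was added for its position.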

Additional observations from a re-analysis of the deposited data

How the results depend on the processing

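All 38 members were positive, and every other choice of members tried was a part of these 38, so its sign was fixed and is no sign of stability. By GENCODE symbols alone, or by protein-coding genes alone, 37 were left, 23 with a log2 fold change of at least 2 in both columns, and 12 without an overlapping annotated gene. The median log2 fold change in column y of the authors' deposited table, 2.84, became 2.74 without the cluster from ZNF565 to ZNF573. It became 2.58 in members that overlap no other listed gene, an alternative chosen after seeing the data; the cause was not tested. Leaving out each cluster in turn gave medians in the authors' deposited table from 2.74 to 2.92 in column y and from 2.11 to 2.27 in column x, and a median difference from 0.51 to 0.62. Of 48 recomputed values 43 stayed within 1.5 times (counts) or 0.1 (log2 medians) of the reported value. Members lay in 9 clusters with a largest gap of 250 kb or 500 kb and in 8 with 1000 kb. No paired analysis was possible because the table holds no values per library, and leaving out libraries, another count model and filters on low counts were not run for the same reason. Depth limits could not be set.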

Other observations

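Transposable elements are known targets of KRAB zinc finger proteins. Of 14 annotated genes with symbols that start with ERV, which mark endogenous retroviral sequences with a gene name, ERVMER34-1 was listed, at 2.99 in column y and 1.72 in column x of the authors' deposited table. Of all annotated genes 1.12% were listed, and a single listed gene says nothing of these genes as a group.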
